A study of Mus musculus with 6 samples.

Results

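The cathepsins are the main proteases of the lysosome, and 10 of them were followed here in the pancreas of newborn mice that differ in Spink3 genotype. They are Ctsa, Ctsb, Ctsc, Ctsd, Ctsf, Ctsh, Ctsk, Ctsl, Ctss and Ctsz. They were chosen as named genes, through every array probe that carries one of these symbols and is not a control. This gave 13 probes of the 55681 different probes on the array, and 10 of its 24165 named genes. Ctsa, Ctsc and Ctsd had a pair of probes each, and the other genes had 1 probe.

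The mice were C57BL/6N at postnatal day 0.5, and total RNA of the whole pancreas was labelled with 1 dye and put on Agilent mouse arrays, with 1 array per sample and 6 in all. The 3 genotypes were Spink3-/-, Spink3-/-XKI/+ and Spink3+/+, with 2 arrays each. Spink3 encodes an inhibitor that acinar cells secrete together with trypsinogen, and it blocks trypsin that becomes active too early. Per the series' design text, every acinar cell of the Spink3-/- pancreas dies a nonapoptotic death with autophagy, while in Spink3-/-XKI/+ mice some acinar cells are normal and the others die in that way. The labels do not say what XKI stands for. The Spink3-/- and Spink3-/-XKI/+ groups share the Spink3-/- part of their label, and Spink3+/+ mice served as controls for both. The labels leave unsaid whether both samples of a genotype are different animals, and the p-values therefore describe a spread between samples that could be technical.

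Cathepsins are made as inactive proenzymes, carried to the lysosome by sorting receptors and activated there by the acid pH and by other proteases. They break down proteins delivered by endocytosis and autophagy. In the pancreas, cathepsin B is known for its ability to activate trypsinogen and cathepsin L for its ability to degrade it, and cystatins inhibit the cysteine cathepsins.

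Many lysosomal genes carry the palindrome CACGTG near their start, often in the longer form TCACGTGA, to which Tfeb and its relatives bind. The windows below are shown for the letters they hold near the start of 4 of the genes, taken from RefSeq promoters (assembly GRCm38.p6), where each window runs from 250 bases before the start of a gene to 50 bases after it. There were 9 windows for 8 of the 10 genes, since Ctsa has a pair, of which only the one shown holds the palindromes. The set of windows at hand held none for Ctsb and Ctsh. Both palindromes read the same on either strand, and each TCACGTGA contains a CACGTG. The shorter palindrome was in 4 of the 9 windows, those of Ctsa, Ctsd, Ctsf and Ctsl, and in 7.15% of all 32851 windows. The longer one was in 2 of the 9 windows, those of Ctsa and Ctsd, and in 0.974% of all windows. For Ctsa and Ctsd the first 280 bases of the window are given 5′ to 3′ on the gene's strand, for Ctsf and Ctsl 60 bases around the palindrome, and capitals mark the palindromes:
Ctsa, chr2:164833523-164833802, plus strand: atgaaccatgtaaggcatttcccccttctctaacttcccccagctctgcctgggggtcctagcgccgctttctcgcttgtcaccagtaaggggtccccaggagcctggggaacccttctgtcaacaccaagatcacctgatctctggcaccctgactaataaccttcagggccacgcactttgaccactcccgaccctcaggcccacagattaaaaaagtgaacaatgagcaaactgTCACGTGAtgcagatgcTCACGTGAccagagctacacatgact
Ctsd, chr7:142387798-142388077, minus strand: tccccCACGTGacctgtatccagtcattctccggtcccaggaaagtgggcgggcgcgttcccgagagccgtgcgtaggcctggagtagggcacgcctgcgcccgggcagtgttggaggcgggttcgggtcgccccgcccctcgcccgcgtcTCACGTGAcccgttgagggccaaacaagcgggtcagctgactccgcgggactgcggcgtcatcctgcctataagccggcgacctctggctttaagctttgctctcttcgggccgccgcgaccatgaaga
Ctsf, chr19:4855059-4855118, plus strand: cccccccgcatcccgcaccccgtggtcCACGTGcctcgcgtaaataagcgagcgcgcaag
Ctsl, chr13:64370711-64370770, minus strand: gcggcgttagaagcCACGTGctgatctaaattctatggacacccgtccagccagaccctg

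In the window of Ctsa the core CACGTG began at -12 and again at 5, counted from the start of the gene at 0. In that of Ctsd it began at -245 and, in the longer form, at -98. It began at -79 in the window of Ctsf and at -236 in that of Ctsl. A match of letters is a description and shows no binding.

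Levels are given as the log2 of the background-subtracted signal minus the 75th percentile of that array, so 0 is the 75th percentile of the array and a difference of 1 is a 2-fold difference. Levels of different probes are not set against each other, since probes differ in how they bind. Between 42.4% and 50.8% of the spots that are not controls were well above background, none was saturated, and 12 of the 13 cathepsin probes were well above background on all 6 arrays. The arrays lay on 1 slide in 2 rows, with both Spink3+/+ arrays and Spink3-/- replicate 1 in row 1, and Spink3-/- replicate 2 and both Spink3-/-XKI/+ arrays in row 2. Spink3 itself was at 3.25 and 2.95 in Spink3-/- pancreas, 2.64 and 2.34 in Spink3-/-XKI/+ pancreas, and 9.84 and 10.26 in Spink3+/+ pancreas. It fell by 6.95 (SE 0.23, limma adjusted p 0.00103) in Spink3-/- against Spink3+/+. It fell by 7.56 (SE 0.23, limma adjusted p 0.000613) in Spink3-/-XKI/+ against Spink3+/+, so Spink3 was low on all Spink3-/- and Spink3-/-XKI/+ arrays. Its probe was still well above background on all 6 arrays. All 16 acinar markers passed the filter on dim probes, but so did all 16 macrophage, 12 liver and 12 fibroblast markers, so passing it does not mark the tissue. Cpa1, a carboxypeptidase made by acinar cells and named here after its values were seen, was at 10.87 and 11.40 in Spink3-/- pancreas, 11.05 and 11.09 in Spink3-/-XKI/+ pancreas, and 10.97 and 11.27 in Spink3+/+ pancreas, far above the 75th percentile on every array.

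The 5 largest differences among the cathepsins, over all 3 genotype comparisons, were those of Ctss (0.85), Ctsb (0.63) and Ctsa (0.47) in Spink3-/-XKI/+ against Spink3+/+ pancreas, of Ctss (0.47) in Spink3-/- against Spink3+/+ pancreas and of Ctsf (-0.45) in Spink3-/- against Spink3-/-XKI/+ pancreas. None of the 10 cathepsins passed the test in any comparison. Few genes of any kind did, with 0.0353% of all tested genes called in Spink3-/- against Spink3+/+, 0.00706% in Spink3-/-XKI/+ against Spink3+/+ and 0.00706% in Spink3-/- against Spink3-/-XKI/+, so the absence of calls says nothing particular about the cathepsins. Tests were made with limma on all 6 arrays and adjusted over 14167 genes with the Benjamini-Hochberg method, and a gene was called at an adjusted p under 0.05. With 2 arrays a genotype the intervals are wide, and a difference that missed the threshold does not show that the genotypes are alike.

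**Figure D1:**
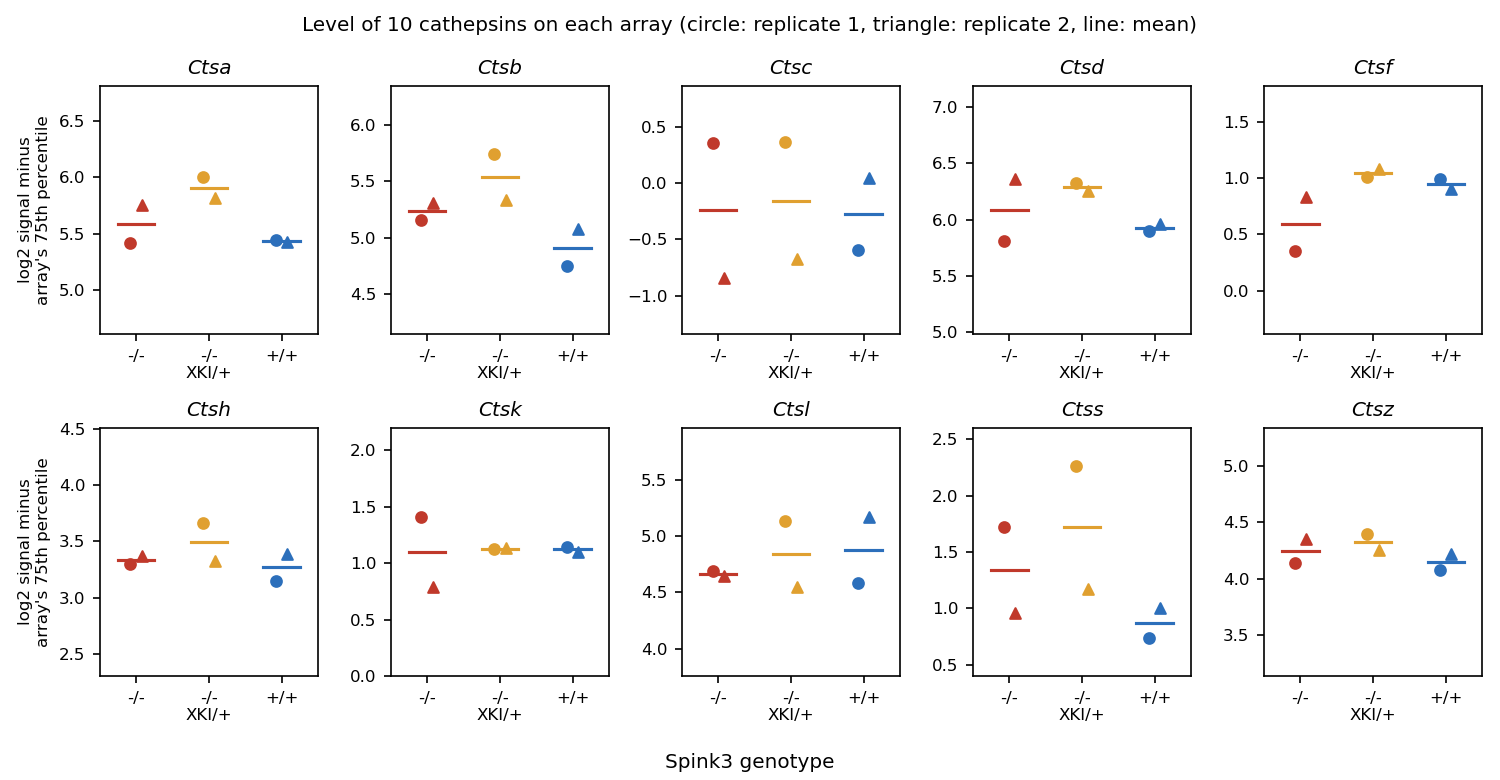
Level of each cathepsin on each array, as log2 signal minus the array's 75th percentile (vertical axes, each spanning the same range), in Spink3-/-, Spink3-/-XKI/+ and Spink3+/+ pancreas; circles are replicate 1, triangles replicate 2 and lines the mean of 2 arrays. Ctsb was above both Spink3+/+ arrays on all arrays of the other genotypes, while the arrays of a genotype lay far apart for Ctsc and Ctss.

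Ctsb, an endopeptidase and carboxypeptidase that can activate trypsinogen, was at 5.16 and 5.31 in Spink3-/- pancreas, 5.74 and 5.33 in Spink3-/-XKI/+ pancreas, and 4.75 and 5.07 in Spink3+/+ pancreas. All Spink3-/- and Spink3-/-XKI/+ arrays lay above both Spink3+/+ arrays, which both comparisons share. In each comparison taken alone, 16.2% (Spink3-/-) and 26% (Spink3-/-XKI/+) of all tested genes had both arrays above both Spink3+/+ arrays. The difference was 0.32 (SE 0.22, 95% interval -0.21 to 0.86, limma adjusted p 0.988) for Spink3-/- against Spink3+/+. For Spink3-/-XKI/+ against Spink3+/+ it was 0.63 (SE 0.22, 95% interval 0.09 to 1.16), with an unadjusted p of 0.0286 and an adjusted limma p of 0.606. Ctsb is measured by 1 probe at chr14:63761906-63761965 on the plus strand of mm9, the build named for the array's annotation.

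Ctsl, the endopeptidase that can degrade trypsinogen, was at 4.69 and 4.65 in Spink3-/- pancreas, 5.14 and 4.55 in Spink3-/-XKI/+ pancreas, and 4.59 and 5.17 in Spink3+/+ pancreas. The Spink3-/- arrays lay within the range of the Spink3+/+ arrays, and the Spink3-/-XKI/+ arrays were spread about as widely as the Spink3+/+ arrays. The difference was -0.21 (SE 0.28, 95% interval -0.89 to 0.48) for Spink3-/- and -0.03 (SE 0.28, 95% interval -0.72 to 0.65) for Spink3-/-XKI/+, each against Spink3+/+.

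Ctsd, the main aspartic protease of the lysosome, was at 5.81 and 6.36 in Spink3-/- pancreas, 6.33 and 6.25 in Spink3-/-XKI/+ pancreas, and 5.90 and 5.96 in Spink3+/+ pancreas. Both Spink3-/-XKI/+ arrays lay above both Spink3+/+ arrays, while the Spink3-/- arrays lay on either side of the Spink3+/+ arrays. The difference was 0.16 (SE 0.22) for Spink3-/- and 0.36 (SE 0.22, 95% interval -0.17 to 0.90, limma adjusted p 0.761) for Spink3-/-XKI/+, each against Spink3+/+.

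Ctsa, a serine carboxypeptidase that also protects lysosomal galactosidase and neuraminidase, was at 5.42 and 5.75 in Spink3-/- pancreas, 6.00 and 5.81 in Spink3-/-XKI/+ pancreas, and 5.45 and 5.42 in Spink3+/+ pancreas. Both Spink3-/-XKI/+ arrays lay above all other arrays. Taken pair by pair, both lay above both Spink3+/+ arrays for 26% of all tested genes and above both Spink3-/- arrays for 21.4%. The difference was 0.15 (SE 0.19) for Spink3-/- against Spink3+/+. For Spink3-/-XKI/+ against Spink3+/+ it was 0.47 (SE 0.19, 95% interval 0.01 to 0.93), with an unadjusted p of 0.0458 and an adjusted limma p of 0.658.

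Ctss, an endopeptidase of antigen-presenting cells that trims the invariant chain of MHC class II, was at 1.72 and 0.96 in Spink3-/- pancreas, 2.26 and 1.17 in Spink3-/-XKI/+ pancreas, and 0.74 and 1.00 in Spink3+/+ pancreas. Replicate 1 was the higher array in Spink3-/- and in Spink3-/-XKI/+ pancreas, and both Spink3-/-XKI/+ arrays lay above both Spink3+/+ arrays. The difference was 0.47 (SE 0.42, 95% interval -0.54 to 1.49) for Spink3-/- and 0.85 (SE 0.42, 95% interval -0.17 to 1.87, limma adjusted p 0.717) for Spink3-/-XKI/+, each against Spink3+/+. As a fold, the interval of the second difference ran from 0.89 to 3.64.

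Ctsk, a collagen-degrading protease best known from osteoclasts, was at 1.41 and 0.79 in Spink3-/- pancreas, 1.12 and 1.14 in Spink3-/-XKI/+ pancreas, and 1.14 and 1.10 in Spink3+/+ pancreas. The Spink3-/- arrays lay on either side of the others, and the difference was -0.02 (SE 0.23) for Spink3-/- and 0.01 (SE 0.23) for Spink3-/-XKI/+, each against Spink3+/+. Ctsf, a cysteine protease that also takes part in processing the invariant chain, was at 0.35 and 0.83 in Spink3-/- pancreas, 1.01 and 1.08 in Spink3-/-XKI/+ pancreas, and 0.99 and 0.91 in Spink3+/+ pancreas. Both Spink3-/- arrays lay below all other arrays. Taken pair by pair, both lay below both Spink3+/+ arrays for 16.6% of all tested genes and below both Spink3-/-XKI/+ arrays for 21.4%. The difference was -0.36 (SE 0.21, 95% interval -0.86 to 0.15, limma adjusted p 0.988) for Spink3-/- against Spink3+/+, and 0.09 (SE 0.21) for Spink3-/-XKI/+ against Spink3+/+.

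Ctsc, the dipeptidyl peptidase that activates serine proteases of neutrophils and mast cells, was at 0.36 and -0.84 in Spink3-/- pancreas, 0.36 and -0.67 in Spink3-/-XKI/+ pancreas, and -0.59 and 0.04 in Spink3+/+ pancreas. The gap within each genotype was wider than any gap between genotype means, and the difference was 0.03 (SE 0.51) for Spink3-/- and 0.12 (SE 0.51) for Spink3-/-XKI/+, each against Spink3+/+. Ctsh, an aminopeptidase, was at 3.30 and 3.37 in Spink3-/- pancreas, 3.66 and 3.32 in Spink3-/-XKI/+ pancreas, and 3.15 and 3.39 in Spink3+/+ pancreas. The arrays overlapped, with differences of 0.07 (SE 0.20) for Spink3-/- and 0.22 (SE 0.20) for Spink3-/-XKI/+, each against Spink3+/+. Ctsz, a carboxypeptidase, was at 4.14 and 4.35 in Spink3-/- pancreas, 4.40 and 4.26 in Spink3-/-XKI/+ pancreas, and 4.08 and 4.22 in Spink3+/+ pancreas. Both Spink3-/-XKI/+ arrays lay above both Spink3+/+ arrays by a narrow margin, with a difference of 0.18 (SE 0.18), and the Spink3-/- difference was 0.10 (SE 0.18).

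The second probes of Ctsc and Ctsd lie elsewhere in the gene than the probe that stands for it, as does that of Ctsa described below. The Ctsc probes are annotated to different transcript records, the probe that stands for the gene to a RefSeq transcript and the second to an Ensembl transcript. The first 30 of the 60 bases of each probe are given below, 5′ to 3′ as on the array, with the position of the whole probe in mm9:
Ctsc, A_52_P195839, chr7:95458436-95458495, plus strand: cgggtctttatcactcacagagtgatttag
Ctsc, A_55_P2072005, chr7:95435428-95435487, plus strand: ttgttcatgcagctgggaactgtgggaatg
Ctsd, A_51_P384629, chr7:149561962-149562021, minus strand: gaaggagcaagaggacagaagcaaaactat
Ctsd, A_65_P13209, chr7:149566847-149568505, minus strand: actgtatcggttccatgtaagtctgaccag

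The second Ctsd probe spans 1659 bases of the genome with its 60 bases, so it crosses a junction between exons. It was at 0.13 and 0.31 in Spink3-/- pancreas, 0.81 and 0.51 in Spink3-/-XKI/+ pancreas, and 0.21 and 0.25 in Spink3+/+ pancreas. As with the first Ctsd probe, both Spink3-/-XKI/+ arrays lay above both Spink3+/+ arrays, with a difference of 0.43 (SE 0.19, limma adjusted p 0.749 over all kept probes), while the Spink3-/- difference was -0.01 (SE 0.19). Over the 6 arrays the Ctsd probes correlated with Pearson's r of 0.753.

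The second Ctsc probe was at -1.38 and -1.99 in Spink3-/- pancreas, -2.08 and -1.75 in Spink3-/-XKI/+ pancreas, and -2.21 and -2.17 in Spink3+/+ pancreas. It was well above background on 4 of the 6 arrays, not on Spink3-/- replicate 2 nor on Spink3+/+ replicate 1, and it passed the filter through the Spink3-/-XKI/+ arrays. With 1 of 2 arrays above background in both Spink3-/- and Spink3+/+ pancreas, no order or difference between these genotypes is read from it. The Ctsc probes correlated with r of 0.265 over the 6 arrays.

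The second Ctsa probe, at chr2:164666433-164666492 on the plus strand of mm9, was at -2.17 and -1.47 in Spink3-/- pancreas, -1.74 and -1.76 in Spink3-/-XKI/+ pancreas, and -1.75 and -2.05 in Spink3+/+ pancreas. Its Spink3-/-XKI/+ arrays did not stand clear of the Spink3+/+ arrays as those of the first Ctsa probe, at chr2:164665023-164665082, did, and its difference was 0.15 (SE 0.27). The Ctsa probes correlated with r of 0.624.

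In Spink3-/- against Spink3+/+ pancreas the median difference of the 10 cathepsins was 0.08, beside -0.01 over all 14167 tested genes. Of the 10, 7 were higher, which became 8 with spike-in scaling, where Ctsk turned, 5 with the slide row as a block, where Ctsa, Ctsd, Ctsk and Ctsz turned, and 5 without Spink3+/+ replicate 1 or without Spink3-/- replicate 2. None was called, where 5 of all tested genes were, and none had an unadjusted p under 0.05, where 5.06% of all tested genes did. Ctsb was the only one with both Spink3-/- arrays above both Spink3+/+ arrays, a pattern shown by 16.2% of all genes, and Ctsf the only one with both below, as were 16.6% of all genes. For 8 of the 10 the 95% interval lay within a 2-fold difference in either direction, the exceptions being Ctsc and Ctss, and the intervals together ran from 0.432-fold to 2.81-fold. Adjusted limma p-values lay between 0.988 and 0.999.

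In Spink3-/-XKI/+ against Spink3+/+ pancreas, 9 of the 10 cathepsins were higher, with Ctsl the exception (8 with quantile or median scaling, where Ctsk turned, and 10 with spike-in scaling, where Ctsl turned). None was called, where 1 of all tested genes was. Ctsa and Ctsb had unadjusted limma p-values under 0.05, as did 7.57% of all tested genes. The count of cathepsins with such a p-value was 0 with median scaling, spike-in scaling, no filter or the row as a block. It was 1 with quantile scaling, the mean of a gene's probes, every probe on its own or the replicate number as a block. The median difference was 0.20, beside 0.04 over all tested genes, of which 56.3% were higher. Both Spink3-/-XKI/+ arrays lay above both Spink3+/+ arrays for 6 of the 10, Ctsa, Ctsb, Ctsd, Ctsf, Ctss and Ctsz, a pattern shown by 26% of all tested genes, and for none were both below, as they were for 16.1% of all genes. The intervals of 7 of the 10 lay within a 2-fold difference, and adjusted limma p-values lay between 0.606 and 0.996. These genotypes lay in different rows of the slide, so no row gives a value for this comparison, and the fit with the row as a block, which rests on the Spink3-/- arrays, gave a median of 0.14 and turned Ctsd (-0.18), Ctsf (-0.38), Ctsl (0.01) and Ctsz (-0.04).

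**Figure D2:**
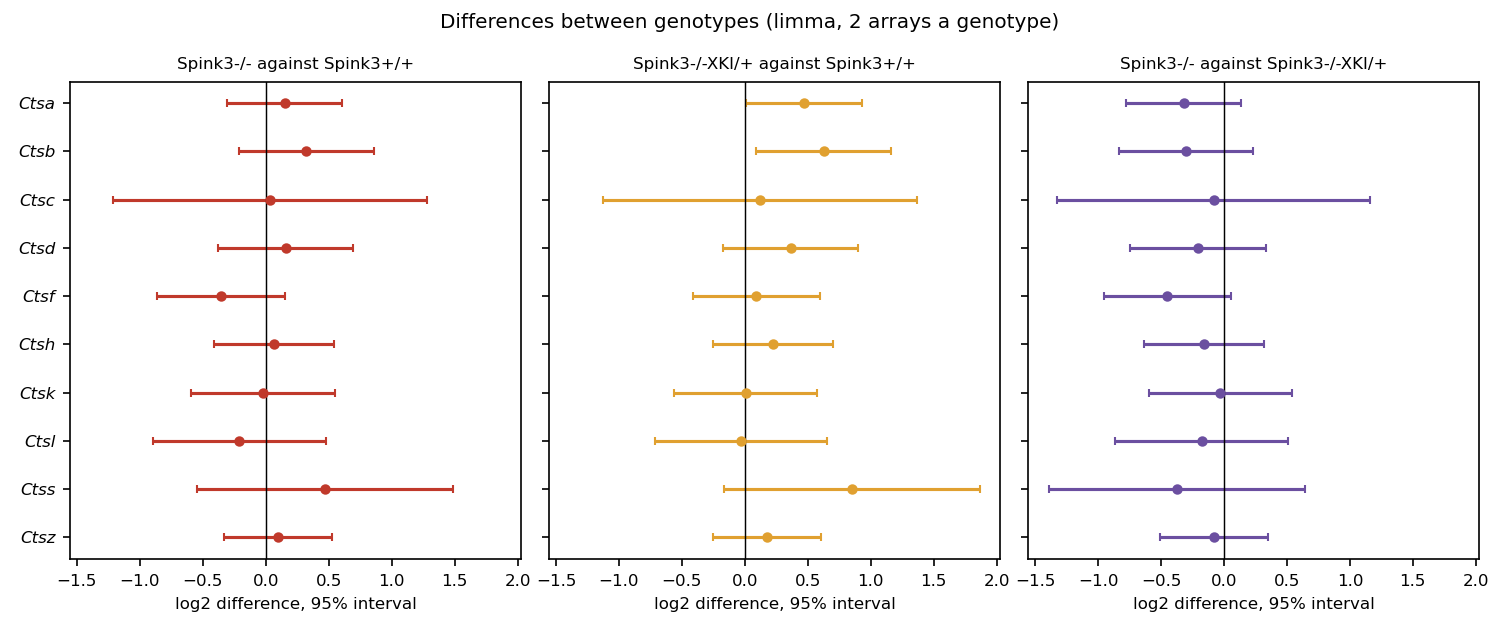
Difference in log2 level for each cathepsin (points) with its 95% interval from limma (bars), for Spink3-/- against Spink3+/+, Spink3-/-XKI/+ against Spink3+/+ and Spink3-/- against Spink3-/-XKI/+, with 2 arrays a genotype. The intervals of Ctsa and Ctsb in Spink3-/-XKI/+ against Spink3+/+ were the only ones that left out 0, before adjustment, and those of Ctsc and Ctss were the widest.

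All 10 cathepsins had lower mean levels in Spink3-/- than in Spink3-/-XKI/+ pancreas, by between 0.03 and 0.45. This became 9 of 10 with quantile or spike-in scaling, where Ctsk turned, 9 of 10 with normexp or the mean of a gene's probes, where Ctsc turned, and 8 of 10 with the row block, where Ctsd and Ctsz turned. None was called, where 1 of all tested genes was, and none had an unadjusted p under 0.05, where 7.21% of all genes did. The median difference was -0.19, beside -0.04 over all tested genes, of which 42.7% were higher in Spink3-/- pancreas. Both Spink3-/- arrays lay below both Spink3-/-XKI/+ arrays for Ctsa, Ctsb and Ctsf, a pattern shown by 21.4% of all genes, and for none were both above, as they were for 13.1% of all genes. The difference with the lowest p was that of Ctsf, -0.45 (SE 0.21, 95% interval -0.96 to 0.06, limma adjusted p 0.716). The intervals of 8 of the 10 lay within a 2-fold difference. This comparison shares its arrays with those above, and the 3 comparisons are not independent.

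The spread within a genotype was carried in part by single arrays. Each gene's levels were centred on its own mean over the 6 arrays and averaged over the 10 genes. This average was -0.01 and -0.09 in Spink3-/- pancreas, 0.36 and -0.02 in Spink3-/-XKI/+ pancreas, and -0.23 and -0.01 in Spink3+/+ pancreas. All 10 genes were above their own mean on Spink3-/-XKI/+ replicate 1, and 6 of 10 on replicate 2, while on Spink3+/+ replicate 1 only Ctsf and Ctsk were. Without Spink3-/-XKI/+ replicate 1 the median difference between Spink3-/-XKI/+ and Spink3+/+ was 0.12, and that between Spink3-/- and Spink3-/-XKI/+ was -0.02, with 4 of the 10 higher. Without Spink3-/-XKI/+ replicate 2 these medians were 0.40 and -0.41, and without Spink3+/+ replicate 1 the median of Spink3-/-XKI/+ against Spink3+/+ was 0.12, against 0.37 without Spink3+/+ replicate 2. Spink3-/- against Spink3+/+ had a median of 0.01 without Spink3-/- replicate 2, of 0.10 without Spink3-/- replicate 1, of 0.01 without Spink3+/+ replicate 1 and of 0.18 without Spink3+/+ replicate 2.

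**Figure D3:**
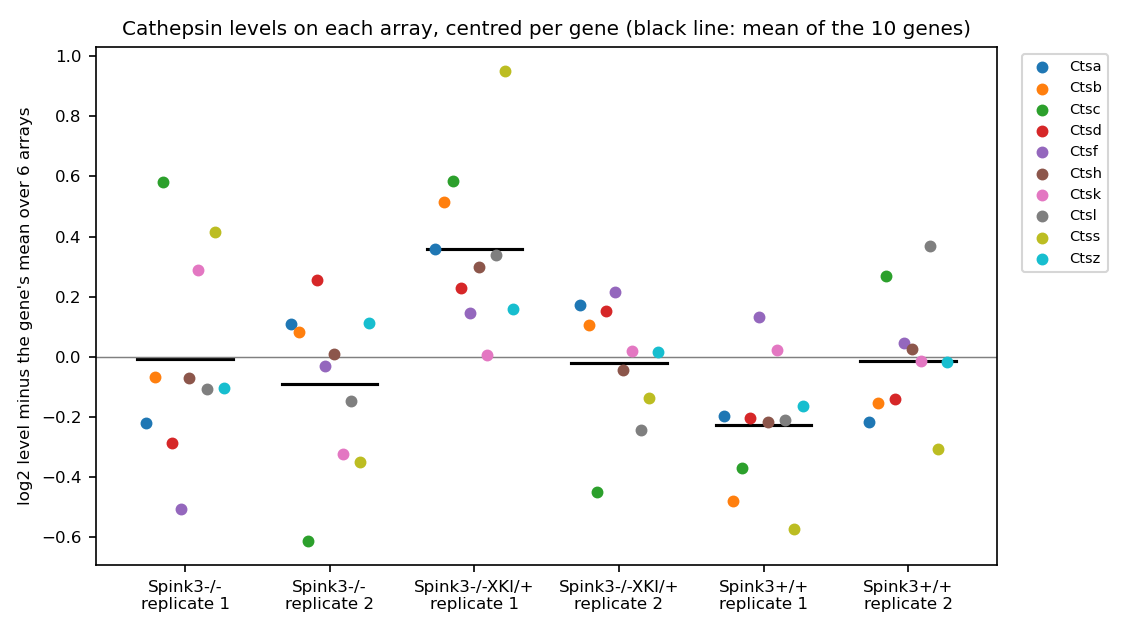
Level of each cathepsin minus its own mean over 6 arrays (vertical axis, log2), on each array (horizontal axis), with each gene in its own colour and the mean of the 10 genes as a black line. The mean was 0.36 on Spink3-/-XKI/+ replicate 1, where all 10 genes lay above 0, and between -0.23 and -0.01 on the other 5 arrays.

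Within a row of the slide, Spink3-/- replicate 1 could be set against both Spink3+/+ arrays and Spink3-/- replicate 2 against both Spink3-/-XKI/+ arrays, with no test. In row 1 the median difference of the cathepsins was 0.01, with 5 of 10 higher, and Ctss (0.85), Ctsc (0.63) and Ctsf (-0.59) differed most. In row 2 the median was -0.20, with 2 of 10 higher, and Ctss (-0.76) and Ctsc (-0.68) differed most. The difference of Ctsb was 0.25 in row 1 (Spink3-/- against Spink3+/+) and -0.23 in row 2 (Spink3-/- against Spink3-/-XKI/+), which are different comparisons.

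Over the 6 arrays some cathepsins varied together, given here as a description, since the arrays share 1 slide and 1 scaling and differ in genotype. Of the 45 pairs of genes, 35 had a positive Pearson correlation, and the share over pairs of other genes was not computed. Ctsa and Ctsd had r of 0.917, Ctsb and Ctsh 0.916, Ctsd and Ctsz 0.904, and Ctsb and Ctss 0.786. The rank correlation (Spearman's rho) of these pairs was lower, at 0.771, 0.6, 0.886 and 0.714 in the same order. Ctsk and Ctsd had r of -0.709. The 5 genes whose levels followed the mean of the 10 cathepsins most closely over the 6 arrays were Ccn1 (r 0.992), Arap1 (0.977), Twf2 (0.976), Syngr1 (0.972) and Bex2 (0.972). Ccn1, a secreted matrix protein, was at -0.40 and -0.93 in Spink3-/- pancreas, 1.03 and -0.34 in Spink3-/-XKI/+ pancreas, and -1.38 and -0.46 in Spink3+/+ pancreas. Ccn1 was chosen for this likeness, so its pattern over the arrays is a description.

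Among 11 tested genes listed with cathepsin sorting and activation, none was called in any comparison. The list also holds Scarb2, and Neu1 and Glb1, the neuraminidase and galactosidase that Ctsa protects. Lgmn, the asparaginyl endopeptidase that processes several cathepsins to their mature forms, was at 3.80 and 3.76 in Spink3-/- pancreas, 4.51 and 4.28 in Spink3-/-XKI/+ pancreas, and 3.38 and 3.44 in Spink3+/+ pancreas. The 3 genotypes did not overlap for Lgmn, with Spink3-/-XKI/+ highest and Spink3+/+ lowest. Taken pair by pair, 16.2% of all tested genes had both Spink3-/- arrays above both Spink3+/+ arrays. Both Spink3-/-XKI/+ arrays lay above both Spink3+/+ arrays for 26% and above both Spink3-/- arrays for 21.4%. The share with all 3 genotypes apart in this order was not computed. The difference was 0.37 (SE 0.17, limma adjusted p 0.988) for Spink3-/- and 0.99 (SE 0.17, limma adjusted p 0.275) for Spink3-/-XKI/+, each against Spink3+/+. Psap, the precursor of the saposins and a partner in the sorting of Ctsd, differed by 0.41 (SE 0.20) in Spink3-/-XKI/+ against Spink3+/+, and Scarb2, the lysosomal receptor of glucocerebrosidase, by -0.30 (SE 0.18) in Spink3-/- against Spink3+/+. The median of the 11 was 0.07 in Spink3-/- and -0.03 in Spink3-/-XKI/+ pancreas, each against Spink3+/+.

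None of the 10 tested cathepsin inhibitors of 13 listed was called either. In Spink3-/- against Spink3+/+, 4 of the 10 had an unadjusted limma p under 0.05, beside 5.06% of all tested genes. In Spink3-/-XKI/+ against Spink3+/+ it was 1 of the 10, beside 7.57%. The median difference of the inhibitors was -0.19 in Spink3-/- and -0.11 in Spink3-/-XKI/+ pancreas, each against Spink3+/+. Kng1, a plasma kininogen made by the liver with cystatin domains, was at 2.61 and 2.70 in Spink3-/- pancreas, -0.29 and 1.42 in Spink3-/-XKI/+ pancreas, and 0.03 and 0.56 in Spink3+/+ pancreas. Both Spink3-/- arrays lay above all others, with a difference of 2.36 (SE 0.54, limma adjusted p 0.733) against Spink3+/+. Taken pair by pair, both lay above both Spink3+/+ arrays for 16.2% of all tested genes and above both Spink3-/-XKI/+ arrays for 13.1%. All 12 liver markers also had higher levels on both Spink3-/- arrays than on both Spink3+/+ arrays, a pattern shown by 16.2% of all tested genes. The median difference of the liver markers was 1.53, with no called gene. An unadjusted limma p under 0.05 was found for 7 of the 12, beside 5.06% of all tested genes. In units of the array's 75th percentile their signal follows. The summed linear signal of the liver markers was 127 and 119 in Spink3-/-, 71.7 and 89.1 in Spink3-/-XKI/+, and 63.3 and 79.8 in Spink3+/+ pancreas. The part of liver RNA in the value of Kng1 was not tested.

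Stfa2l1, one of the stefin A genes, which lie in a cluster of near copies and may share a probe's signal, was at 2.08 and 2.22 in Spink3-/- pancreas, 2.54 and 2.91 in Spink3-/-XKI/+ pancreas, and 2.50 and 3.46 in Spink3+/+ pancreas. Its difference was -0.83 (SE 0.33, limma adjusted p 0.984) for Spink3-/- against Spink3+/+, with both Spink3-/- arrays below all others. Taken pair by pair, both lay below both Spink3+/+ arrays for 16.6% of all tested genes and below both Spink3-/-XKI/+ arrays for 21.4%. Stefins of this kind are abundant in neutrophils, and 9 of 10 tested neutrophil markers were also lower in Spink3-/- than in Spink3+/+ pancreas, with a median of -0.74 and no called gene. Of the 10, 5 had an unadjusted limma p under 0.05, beside 5.06% of all tested genes. Among all 14167 tested genes, 7215 were lower in that comparison. In Spink3-/-XKI/+ against Spink3+/+ pancreas, where Stfa2l1 overlapped, 7 of the 10 neutrophil markers and 6187 of all tested genes were lower. The median of the neutrophil markers was -0.67, and 4 had an unadjusted limma p under 0.05, beside 7.57% of all tested genes. The part of neutrophil RNA in the stefin values was not tested. In Spink3-/-XKI/+ against Spink3+/+ the inhibitors that differed most were Cst6, a secreted cystatin (-0.52, SE 0.21), and Stfa3 (-0.51, SE 0.24).

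Other cathepsins were mostly dim in this tissue. Of 13 listed, 3 passed the filter on dim probes, Ctsg, Ctso and Ctsw, and none was called. Ctsg, a serine protease of neutrophil granules, was at -1.88 and -1.95 in Spink3-/- pancreas, -2.09 and -3.51 in Spink3-/-XKI/+ pancreas, and -1.79 and 0.76 in Spink3+/+ pancreas. It was well above background on 4 of 6 arrays, and the high value came from Spink3+/+ replicate 2. Ctsw, a protease of cytotoxic lymphocytes, was at -1.67 and -2.32 in Spink3-/- pancreas, -1.72 and -1.48 in Spink3-/-XKI/+ pancreas, and -2.44 and -2.25 in Spink3+/+ pancreas, and was also well above background on 4 of 6 arrays.

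Of 34 other lysosomal hydrolases, membrane proteins and their regulators, 33 were tested and none was called. Their median difference was -0.04 in Spink3-/- against Spink3+/+, with 14 of 33 higher, and 0.07 in Spink3-/-XKI/+ against Spink3+/+, with 22 of 33 higher. Over all tested genes, 49.1% were higher in the first comparison and 56.3% in the second. Lipa, the lysosomal acid lipase, was at 0.62 and 0.85 in Spink3-/- pancreas, 1.09 and 0.94 in Spink3-/-XKI/+ pancreas, and 0.40 and 0.33 in Spink3+/+ pancreas. The 3 genotypes did not overlap for Lipa, and the difference was 0.65 (SE 0.17, limma adjusted p 0.479) for Spink3-/-XKI/+ against Spink3+/+. Taken pair by pair, 16.2% of all tested genes had both Spink3-/- arrays above both Spink3+/+ arrays. Both Spink3-/-XKI/+ arrays lay above both Spink3+/+ arrays for 26% and above both Spink3-/- arrays for 21.4%. Atp6ap1, an accessory protein of the proton pump that acidifies the lysosome, differed by -0.55 (SE 0.34) in Spink3-/- and by -0.67 (SE 0.34) in Spink3-/-XKI/+ pancreas, each against Spink3+/+. Npc1, a cholesterol carrier of the lysosomal membrane, differed by -0.46 (SE 0.30) in Spink3-/- against Spink3+/+.

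The trypsinogens, the substrates through which Ctsb and Ctsl are known to act in this organ, were represented by 4 tested genes with near-identical sequences, so their signals may be shared. Prss1 was at 9.74 and 9.97 in Spink3-/- pancreas, 10.33 and 10.17 in Spink3-/-XKI/+ pancreas, and 10.03 and 10.44 in Spink3+/+ pancreas. Both Spink3-/- arrays lay below all others, with a difference of -0.38 (SE 0.21, limma adjusted p 0.988) against Spink3+/+. Taken pair by pair, both lay below both Spink3+/+ arrays for 16.6% of all tested genes and below both Spink3-/-XKI/+ arrays for 21.4%. Prss2 differed by -0.25 (SE 0.26) in Spink3-/- and by 0.14 (SE 0.26) in Spink3-/-XKI/+, each against Spink3+/+, and Try5 by 0.06 (SE 0.23) in the second. Acinar markers had a median difference of -0.14 in Spink3-/- against Spink3+/+, with 13 of 16 lower and none called, beside 7215 of all 14167 tested genes lower. The lipase Pnlip differed by -1.41 (SE 0.32) in Spink3-/- and by 1.09 (SE 0.32) in Spink3-/-XKI/+, each against Spink3+/+. Ctrl, a chymotrypsin-like protease, differed by -0.84 (SE 0.32) in Spink3-/- against Spink3+/+, and Gp2, a zymogen granule membrane protein, by 0.91 (SE 0.34) in Spink3-/-XKI/+ against Spink3+/+.

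Macrophages are rich in lysosomes, where the cathepsins act. Of 16 macrophage markers, 14 had higher means in Spink3-/- and 14 in Spink3-/-XKI/+ than in Spink3+/+ pancreas, with median differences of 0.25 and 0.57 and no called gene. For all tested genes, 49.1% and 56.3% were higher in these comparisons. An unadjusted limma p under 0.05 was found for 5 and 9 of the 16 markers, beside 5.06% and 7.57% of all tested genes. Cd163, described below, was counted among the 16. The summed linear signal of the macrophage markers, in units of the array's 75th percentile, was 174 and 184 in Spink3-/- and 198 and 196 in Spink3-/-XKI/+ pancreas. It was 150 and 156 in Spink3+/+ pancreas. The genotypes did not overlap in this sum, in which bright probes weigh most. The mean log2 level of the same markers was 1.56 and 1.30 in Spink3-/-, 1.79 and 1.55 in Spink3-/-XKI/+, and 1.07 and 1.26 in Spink3+/+ pancreas. By that mean, Spink3-/- overlapped Spink3-/-XKI/+. The summed signal of the 10 cathepsins was 196 and 237 in Spink3-/-, 277 and 232 in Spink3-/-XKI/+, and 186 and 211 in Spink3+/+ pancreas, where Spink3-/- overlapped both other genotypes. The mean log2 level of the 10 cathepsins was 3.24 and 3.15 in Spink3-/-, 3.60 and 3.22 in Spink3-/-XKI/+, and 3.02 and 3.23 in Spink3+/+ pancreas. By that mean all 3 genotypes overlapped. The part of macrophage RNA in the cathepsin values was not tested. In RNA from whole tissue a change in the number of cells of a type and a change in RNA per cell cannot be told apart.

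Lyz2, the lysozyme of myeloid cells, was at -0.60 and -0.96 in Spink3-/- pancreas, -0.43 and -0.49 in Spink3-/-XKI/+ pancreas, and -1.87 and -1.28 in Spink3+/+ pancreas, with a difference of 1.12 (SE 0.25, limma adjusted p 0.415) for Spink3-/-XKI/+ against Spink3+/+. Adgre1, the F4/80 antigen, differed by 0.91 (SE 0.44) in Spink3-/- against Spink3+/+. Cd163, a scavenger receptor of resident macrophages, was well above background on the Spink3+/+ arrays alone and passed the filter only through them, so its direction was fixed by the filter. No size of difference and no p-value is read from it.

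Lists of other cell types held no called gene in any comparison. The 12 fibroblast and stellate cell markers had median differences of -0.02 in Spink3-/- and 0.15 in Spink3-/-XKI/+ pancreas, and the 9 tested markers of lymphocytes and dendritic cells 0.36 and 0.47, each against Spink3+/+. The 3 tested osteoclast and bone markers, of interest beside Ctsk, had medians of 0.23 and -0.11. The 6 duct markers had medians of 0.30 and 0.17, the 7 endothelial markers -0.27 and -0.10, and the 4 erythroid markers -0.79 and -1.25. Unadjusted limma p-values under 0.05 were found for 2 and 1 duct, 1 and 1 endothelial and 1 and 4 erythroid markers. For fibroblast markers and for those of lymphocytes and dendritic cells the counts were 0 and 1, and for osteoclast and bone markers 0 and 0. Over all tested genes the shares were 5.06% and 7.57%.

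**Figure D4:**
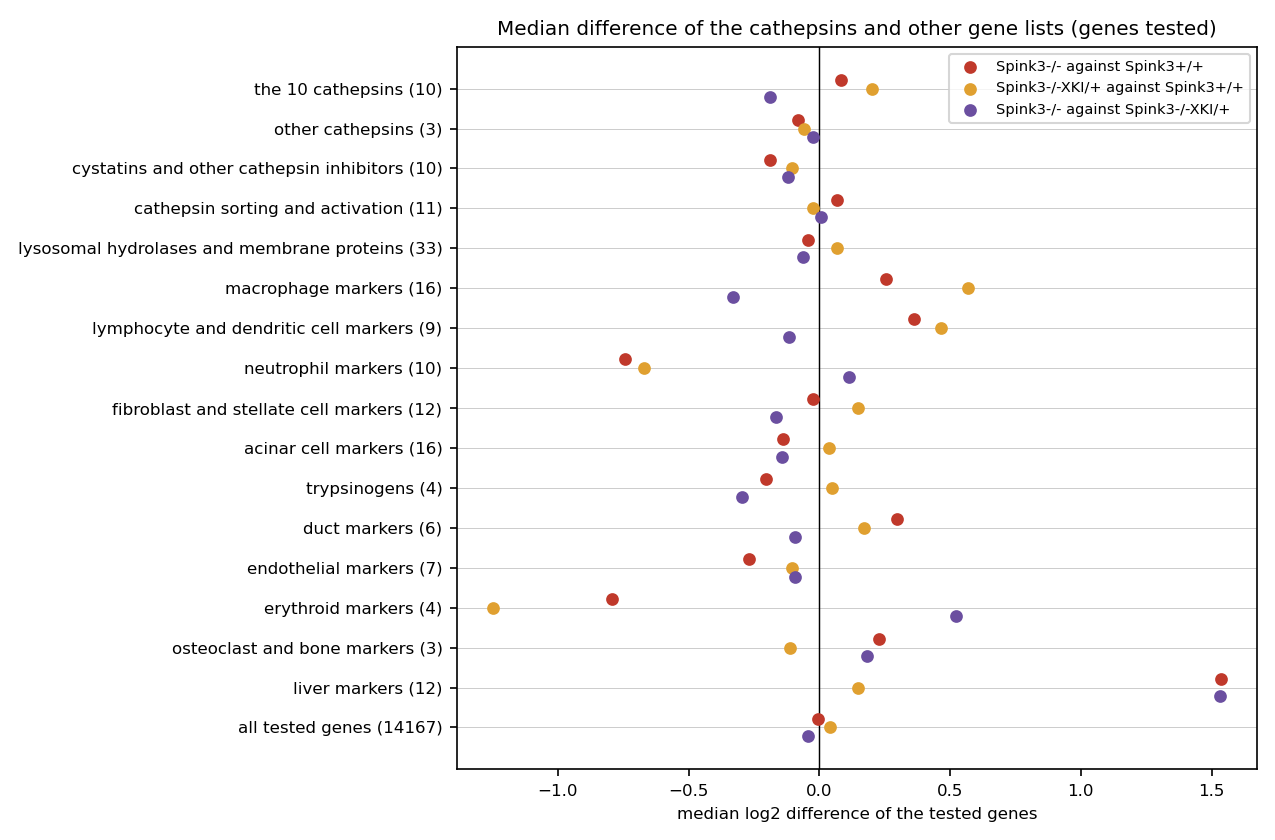
Median log2 difference of the tested genes of each list (horizontal axis), with the number of genes tested in brackets, for the 3 genotype comparisons (colours). The medians of the 10 cathepsins were 0.08, 0.20 and -0.19, while the liver markers reached 1.53 in both comparisons with Spink3-/- on top and the macrophage markers 0.57 in Spink3-/-XKI/+ against Spink3+/+.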

How the data were processed

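Gene expression was measured in whole pancreas at postnatal day 0.5 on 6 single-colour arrays, 2 for each of 3 genotypes taken from the labels. The deposited intensity values are linear processed signals from the scanner software, Agilent Feature Extraction 10.7.3.1 (per the submitters' processing notes), background-subtracted and detrended per the file headers, with no step that made arrays comparable. Flags for spots well above background, saturated or outlying are other columns of the deposited scanner files. The series' deposited value table held the same intensity for every spot, uncentred, with column medians from 15.2 to 19.9, so the alternative that uses it repeats the same fit.

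The log2 of the signal was computed with a pseudocount of 0 and each array's 75th percentile (111 to 155) over the 59305 spots that are not controls was subtracted. Outlier spots were left out and spots of a probe averaged. A probe had to be well above background on both arrays of 1 or more genotypes (24820, or 44.6%, were kept), and the brightest kept probe stood for a gene (14167 genes). Probes were named through 49997 RefSeq genes, with 26762 matched on accession, 3819 on symbol and 639 on a former symbol. The file's own name stayed for 2044, and 22417 had none; RefSeq lists Spink3 under another symbol. The test was that of limma 3.58.1 (R 4.3.3; two-sided, 3 residual degrees of freedom, 95% intervals, Benjamini-Hochberg adjustment over all genes), tested on simulated data first. The R package data.table (version 1.17.8), Python 3.11.15 and matplotlib 3.10.9 were also used.

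The cathepsins and the other gene lists were chosen with earlier results of these data known. Named were all 10 cathepsins with every probe; of the other lists, members called in a comparison or, with none called, those among the 2 largest differences in it; and the 5 genes most correlated with the cathepsins' mean. Where a list is described by its median alone, no member is named. The alternatives were 13 settings of scaling, background, filter, probe choice and model, and leaving out each array in turn. Deviations of same-numbered samples correlated over 14167 genes with r of 0.20 between Spink3-/- and Spink3-/-XKI/+, -0.06 between Spink3-/- and Spink3+/+ and 0.03 between Spink3-/-XKI/+ and Spink3+/+. Since not every value is over 0.1 and the labels give no shared litter or batch, replicate numbers only name samples. The number of arrays limits the precision.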

Additional observations from a re-analysis of the deposited data

How the results depend on the processing

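No cathepsin passed the threshold in any comparison under the 13 alternatives with all arrays (lowest limma adjusted p 0.5004) or with 1 array left out (0.322), so precision, with 2 arrays a genotype, limits every statement on these genes. The cause of the shifts below was not tested. By construction 7 of the 13 (both filters, every probe on its own, the 2 genotypes alone, the replicate block, the series values and the trended prior) leave every cathepsin difference as it was, so they bear on p-values alone. Over the other 6 the median difference of the 10 cathepsins kept its sign, at 0.01 to 0.20 for Spink3-/- against Spink3+/+, 0.14 to 0.25 for Spink3-/-XKI/+ against Spink3+/+ and -0.22 to -0.13 for Spink3-/- against Spink3-/-XKI/+, and, with 1 array left out, 0.01 to 0.18, 0.12 to 0.40 and -0.41 to -0.02. Spike-in scaling moved the median of all genes in Spink3-/- against Spink3+/+ to 0.11. An arm left with 1 array is assumed to vary like the others.

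Of the 390 values of single cathepsins with all arrays, 231 were identical to the reported ones. Of the other 159, 18 changed sign. Spink3-/- against Spink3+/+: with slide row as a block, Ctsa was -0.015, Ctsd -0.11, Ctsk 0.28 and Ctsz -0.011, and with spike-in scaling Ctsk was 0.091. Spink3-/-XKI/+ against Spink3+/+: with the row block, Ctsd was -0.18, Ctsf -0.38, Ctsl 0.0087 and Ctsz -0.038, Ctsk was -0.0084 with quantile and -0.026 with median scaling, and Ctsl 0.017 with spike-in scaling. Spink3-/- against Spink3-/-XKI/+: Ctsc was 0.0031 with normexp and 0.074 as the mean of its probes, Ctsd 0.067 and Ctsz 0.027 with the row block, and Ctsk 2e-04 with quantile and 0.036 with spike-in scaling.

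Of 180 values with 1 array left out, 60 were identical and 23 of the other 120 changed sign. The ranges for Spink3-/- against Spink3+/+ were -0.015 to 0.32 for Ctsa, -0.56 to 0.63 for Ctsc, -0.11 to 0.43 for Ctsd, -0.055 to 0.19 for Ctsh, -0.33 to 0.28 for Ctsk, -0.50 to 0.081 for Ctsl and -0.011 to 0.20 for Ctsz. For Spink3-/-XKI/+ against Spink3+/+ they were -0.40 to 0.63 for Ctsc, -0.011 to 0.025 for Ctsk and -0.32 to 0.26 for Ctsl. For Spink3-/- against Spink3-/-XKI/+ they were -0.68 to 0.52 for Ctsc, -0.48 to 0.067 for Ctsd, -0.33 to 0.012 for Ctsh, -0.34 to 0.28 for Ctsk, -0.47 to 0.12 for Ctsl, -0.92 to 0.17 for Ctss and -0.19 to 0.027 for Ctsz.

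The number of called genes, in the order Spink3-/- against Spink3+/+ (5), Spink3-/-XKI/+ against Spink3+/+ (1) and Spink3-/- against Spink3-/-XKI/+ (1), was 1, 2 and 0 with normexp, 11, 2 and 0 with every probe on its own, 1, 0 and 3 with the row block, and 2, 2 and 0 with a trended prior. For the first comparison it was 1 without a filter or with probes above background on all arrays, 2 with the mean of a gene's probes and 11 with the 2 genotypes alone. For the second it was 3 with quantile scaling. For the third it was 4 with quantile, 3 with median and 2 with spike-in scaling, and 0 without a filter, with probes above background on all arrays and with the 2 genotypes alone. With the replicate number as a block, which is no pairing here, it was 1 for the first and 0 for the third comparison, and no cathepsin was called. With 1 array left out, the counts ran from 1 to 290, from 1 to 306 and from 0 to 295, and the high counts came where an arm of the comparison held 1 array.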
